A study of Homo sapiens with 16 samples.

Results

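Lung metastases of human A375 MA2-Luc melanoma from mice on a ketogenic diet with inhibitors were compared with metastases from mice on a high fat diet without inhibitors. The 2 groups differ in both factors of the design, and were chosen by their labels alone. They hold 8 of the 16 libraries of the series, 4 in each group. The other 8 libraries, from the high fat diet with inhibitors and from the ketogenic diet without, were used to share one estimate of the spread and to place the values.

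A375 is an established human melanoma line, and MA2-Luc is the name the labels give to the variant used. Cells (250000 per injection) were given behind the eye to NSG mice, an immunodeficient strain without mature lymphocytes that keeps its own myeloid cells. All 4 groups share the line, the host strain, the route and the lung as the site of the tumor. In the combination group, mice ate a ketogenic diet and received inhibitors of BRAF kinase and of MEK 1/2 by oral gavage 3 times a week for 5 weeks. In the untreated high fat group, mice ate a high fat diet and were not treated, and no vehicle is named for them. Which compounds and doses were used, and the age and sex of the mice, is not given in the sources used here. The labels number 4 replicates in each group but do not tie each one to its own mouse, so p-values measure the spread between these libraries. They call all samples lung metastases, although the series text also mentions culture of the line.

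In cells of this kind an activated BRAF kinase drives MEK, which phosphorylates the ERK kinases, and ERK in turn switches on immediate early genes, cyclin D1 and a set of feedback inhibitors. Inhibitors of BRAF and MEK lower that signal, and melanoma that grows again under them often regains it. A ketogenic diet is low in carbohydrate and raises ketone bodies in the blood, which tissues can take up and burn as acetyl-CoA.

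Totals ran from 56.4 to 64.5 M estimated counts per library in the untreated high fat group and from 37.1 to 52.5 M in the combination group. Ribosomal RNA genes took 21.7, 36.7, 50.0 and 22.3% of the counts in high fat libraries 1 to 4. They took 7.98, 7.87, 4.10 and 8.37% in combination libraries 1 to 4. The 2 ranges did not overlap, and the difference was -2.17 on the log2 scale (exact two-sided permutation test, p = 0.0286, n = 4 and 4, the smallest value this design allows). The share therefore cannot be told apart from the groups. With the share as a covariate 9 genes were called in place of 4876, and without the libraries above 30% (high fat libraries 2 and 3 and 1 untreated ketogenic library) 1718. The latter fit kept only high fat libraries 1 and 4 of the untreated high fat group. Counts for single lists in that fit are to be read beside this fall over all genes.

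Small RNAs without a poly-A tail moved in single libraries too. RN7SL1, the RNA of the signal recognition particle, was at 285, 616, 1237 and 260 CPM (counts scaled by TMM to one common library size) in high fat libraries 1 to 4 and at 21.5, 17.1, 11.6 and 463 CPM in combination libraries 1 to 4. Combination library 4 was thus within the high fat range for this RNA, although its ribosomal share was low.

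Melanocyte lineage markers were present in part. SOX10, a transcription factor that defines the melanocyte lineage, was at 726 to 924 CPM in the untreated high fat group and 743 to 797 CPM in the combination group. MITF, the regulator of melanocyte genes, was at 101 to 135 and 105 to 130 CPM. PMEL, a melanosome protein, stayed at 0.802 to 3.12 CPM across the 8 libraries. Some defining markers of mouse-host tissues were at or near 0 under their human symbols: CDH5 of endothelium, ADIPOQ of adipocytes and SFTPC of lung epithelium were each below 0.05 CPM in all 8 libraries. Other members of their lists were not near 0. In the untreated high fat group the lists summed to 101 to 125, 101 to 178 and 163 to 201 CPM. In the combination group they summed to 121 to 147, 102 to 153 and 111 to 210 CPM. Their most abundant members were ENG, LPL and KRT18.

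**Figure D1:**
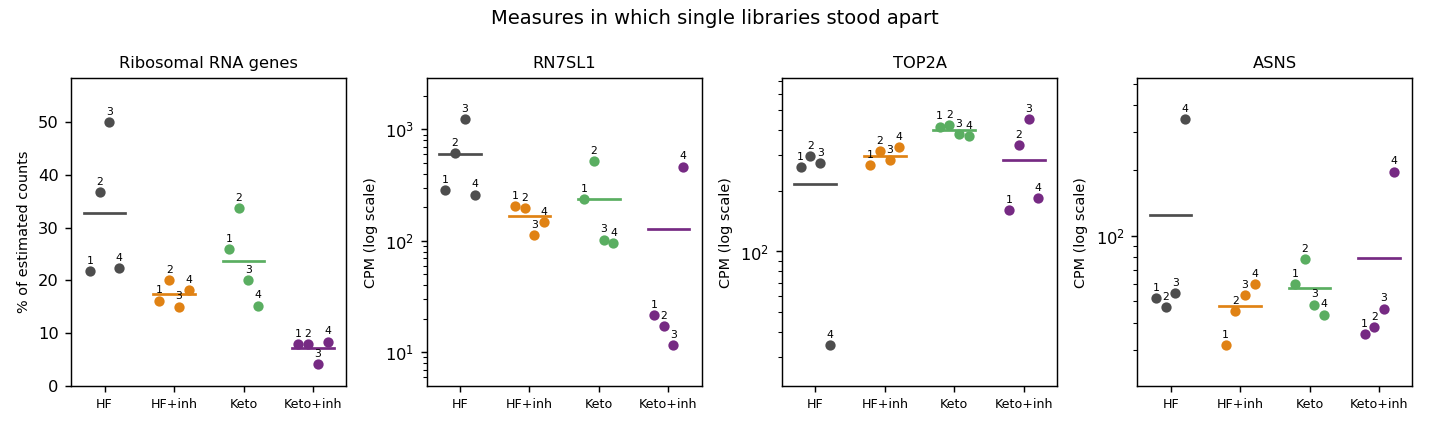
Share of estimated counts on ribosomal RNA genes (linear axis, %) and CPM (log axes) of RN7SL1, TOP2A and ASNS in each of the 16 libraries. HF is high fat diet, Keto is ketogenic diet, and inh is inhibitors. Points are libraries with their replicate number, and lines are group means of 4. The 4 combination libraries have the lowest ribosomal shares, high fat library 4 is far below the others for TOP2A, and high fat library 4 and combination library 4 are the highest of their groups for ASNS.

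Of 16012 genes tested, 4876 (30.5%) passed an adjusted p of 0.05 between the combination and the untreated high fat group. Of these, 2669 (16.7%) were higher and 2207 (13.8%) were lower in the combination group. Past a fold change of 2 there were 1199 genes (7.49%), of which 473 (2.95%) were higher and 726 (4.53%) were lower. The 4 and 4 libraries did not overlap for 4089 genes (25.5%), 2118 (13.2%) of them higher and 1971 (12.3%) lower. The median absolute log2 change of the called genes was 0.64, with a median standard error (SE) of 0.15. Leaving out 1 library at a time moved the number of called genes from 3384 (without high fat library 3) to 5889 (without combination library 1). When scaled by total counts alone, the median of all genes moved from -0.01 to 0.43, and 6585 genes were then higher and 388 lower. These totals include the ribosomal RNA genes, whose share differed between the groups. With those genes removed and TMM scaling kept, the median was -0.007 and 4877 genes were called.

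FMOD had the largest rise among called genes that averaged 5 CPM or more in the higher group and whose libraries did not overlap. FMOD (fibromodulin, a small proteoglycan that binds collagen, chr1:203340628-203351758) was at 14.5, 8.81, 9.36 and 11.2 CPM in combination libraries 1 to 4. In high fat libraries 1 to 4 it was at 0.0948, 0.108, 0.263 and 0.0875 CPM, which rest on 27 counts in all. Each combination library was far above each high fat library, and the log2 fold change was 6.35 ± 0.49 (SE, adjusted p = 5.95e-06).

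FGL2, a fibrinogen-like protein (chr7:77193371-77199848), was at 105, 64.1, 40.8 and 62.3 CPM in the combination libraries against 2.45, 1.49, 2.23 and 2.52 CPM in the high fat libraries. That is 31.2-fold higher, with a log2 change of 4.96 ± 0.61 (SE, adjusted p = 0.00023). C1QTNF3, a secreted relative of complement C1q (chr5:34019448-34043832), was at 95.1, 94.8, 102 and 168 CPM against 7.47, 10.1, 10.9 and 12.5 CPM. Its groups were also apart, with a log2 change of 3.49 ± 0.30 (SE, adjusted p = 2.15e-05).

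Both inhibitor groups had high values of these 3 genes. In the high fat group with inhibitors, means were 5.38 ± 1.73 CPM for FMOD, 81.1 ± 29.1 for FGL2 and 82.6 ± 11.1 for C1QTNF3 (SD, n = 4). In the untreated ketogenic group, they were 0.249 ± 0.15, 2.22 ± 1.98 and 22.3 ± 9.88 CPM. Against the high fat group with inhibitors, the combination differed by 1.03 ± 0.36 for FMOD (SE, log2, adjusted p = 0.239) and by -0.25 ± 0.50 for FGL2 (adjusted p = 0.876). The plot of 12 genes by library shows the 4 groups side by side.

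Some of the other genes among the 8 largest rises by that rule leaned on combination library 4. PTGS2 (cyclooxygenase 2, which makes prostaglandins) was at 18.4, 32.2, 26.5 and 154 CPM against 4.71, 7.88, 4.71 and 8.21 CPM. The groups did not overlap, and the log2 change was 3.18 ± 0.59 (SE, adjusted p = 0.00186), or 2.01 without combination library 4. NTS (neurotensin, a peptide) was at 0.377, 0.843, 2.90 and 24.8 CPM, and its log2 change fell from 5.03 to 2.61 without that library. LDLRAD2 was at 2.95, 0.757, 0.747 and 17.9 CPM, and its change fell from 3.90 to 1.99. TTR (transthyretin, a carrier of thyroid hormone, and here also one of the plasma markers) was at 75.2, 22.7, 16.6 and 38.9 CPM in the combination libraries and at 1.26, 2.01, 1.03 and 0.927 CPM in the high fat libraries. Its rise of 4.88 ± 0.54 (SE, adjusted p = 0.000125) did not rest on 1 library.

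By the same rule for the lower direction, LDB2 and STAC were among the 8 largest falls. LDB2 (a cofactor that bridges LIM-domain transcription factors, chr4:16501541-16898809) was at 2.11, 0.465, 1.08 and 0.608 CPM in combination libraries 1 to 4 and at 13.8, 16.7, 14.7 and 8.70 CPM in high fat libraries 1 to 4. All combination libraries were below all high fat libraries, and LDB2 fell by 3.65 ± 0.54 on the log2 scale (SE, adjusted p = 0.000499). STAC, an adaptor protein (chr3:36380344-36548007), was at 1.49, 0.861, 1.67 and 1.01 CPM against 6.35, 6.78, 6.34 and 11.2 CPM. It fell by 2.61 ± 0.26 (SE, log2, adjusted p = 4.53e-05).

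LEMD1 fell by 2.86 ± 0.64 (SE, adjusted p = 0.00462), from 4.44 to 5.86 CPM in the high fat libraries to 0.22 to 1.80 CPM in the combination libraries. COL15A1, a basement membrane collagen, was at 27.2, 25.8, 30.2 and 93.2 CPM in the high fat libraries and at 7.94, 7.33, 6.83 and 3.79 CPM in the combination libraries. It fell by 2.77 ± 0.43 (SE, adjusted p = 0.000647), and by 2.097 without high fat library 4.

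The other 4 genes of this group are RNAs made outside the usual poly-A pathway. The small nuclear RNA genes RNU2-1 and RNU2-2P and the ribosomal RNA genes RNA28S5 and RNA45S5 were lower in the combination group. RNU2-1, a part of the spliceosome, was at 7.19, 46.6, 173 and 9.99 CPM in high fat libraries 1 to 4 and at 0.884, 0.654, 0.725 and 5.89 CPM in combination libraries 1 to 4. Its highest values were in the same high fat libraries as the highest ribosomal shares, and both RNU2 genes have near-identical copies. With the ribosomal share as a covariate their direction turned, to 1.96 for RNU2-1 and 1.499 for RNU2-2P, neither past the threshold.

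**Figure D2:**
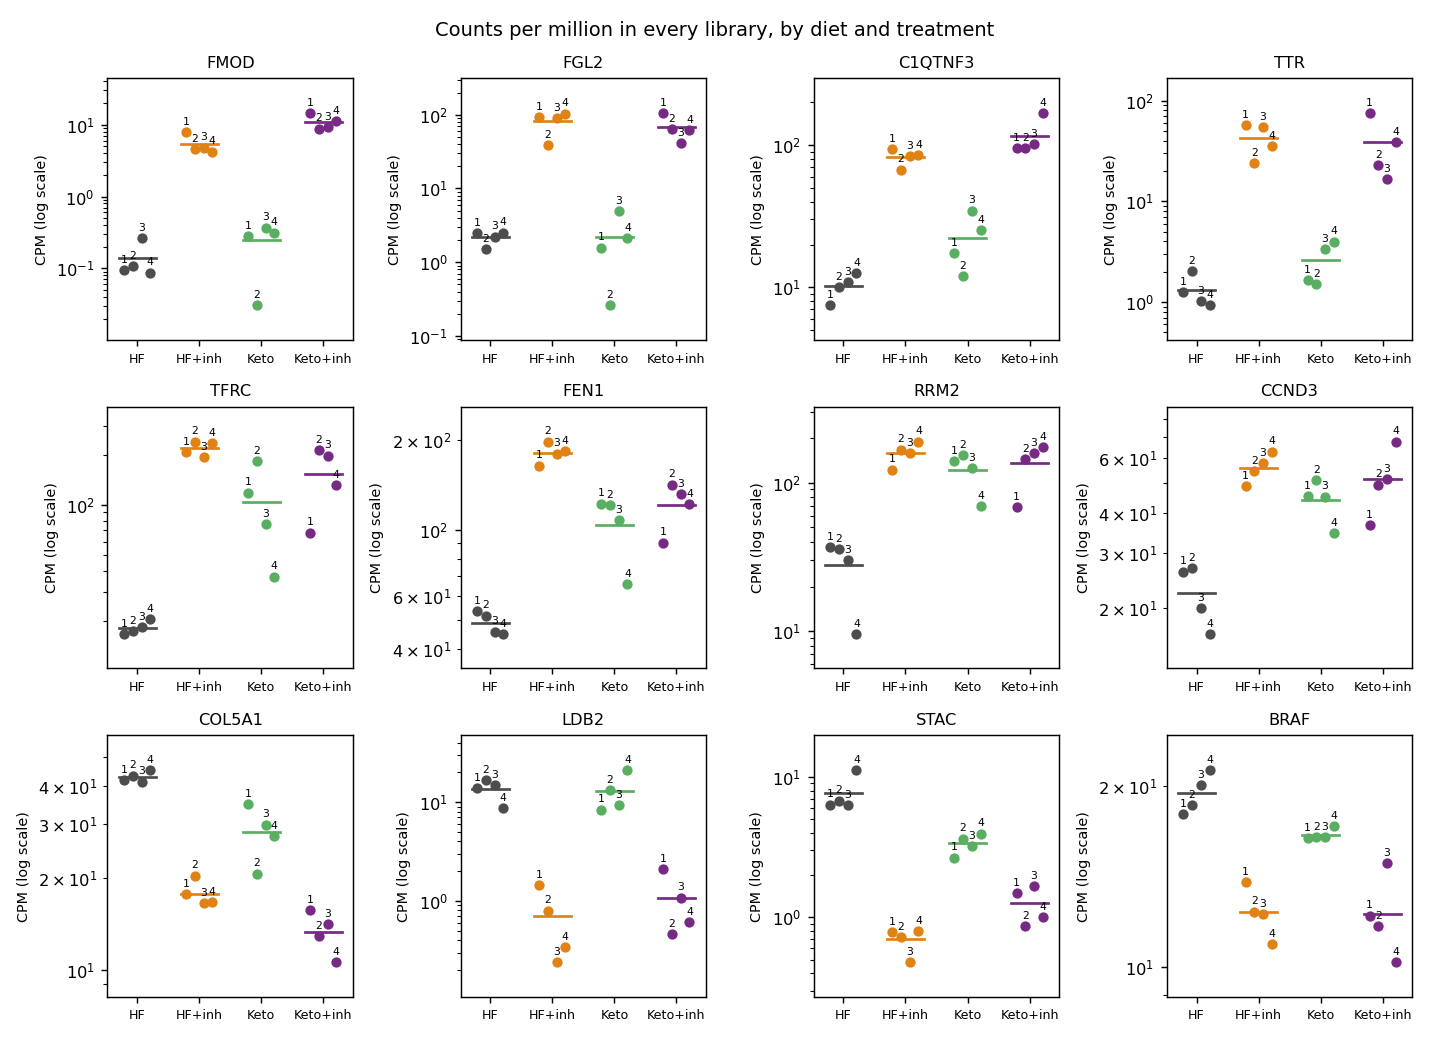
CPM (log axes) of 12 genes in the 16 libraries, grouped by diet (HF, high fat; Keto, ketogenic) and inhibitors (inh). Points are libraries with their replicate number, and lines are group means of 4. FMOD, FGL2, C1QTNF3 and TTR are high in both inhibitor groups, TFRC, FEN1, RRM2 and CCND3 are low in the untreated high fat group alone among group means, and COL5A1, LDB2, STAC and BRAF are lower in the combination group than in the untreated high fat group.

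The genes of the labelled drug targets were measured next. BRAF (chr7:140719327-140924928) was at 12.2, 11.7, 14.9 and 10.2 CPM in combination libraries 1 to 4 and at 17.9, 18.6, 20.1 and 21.2 CPM in high fat libraries 1 to 4. All 4 combination libraries were lower, and BRAF fell by 0.67 ± 0.12 on the log2 scale (SE, adjusted p = 0.000868), or by 0.22 (adjusted p = 0.349) when scaled by total counts alone.

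MAP2K1, the gene of MEK1, was at 63.1, 54.0, 64.9 and 56.0 CPM against 54.0, 50.5, 49.8 and 60.9 CPM, with overlapping groups and a log2 change of 0.15 ± 0.09 (SE, adjusted p = 0.218). MAP2K2, the gene of MEK2, changed by -0.07 ± 0.11 (SE, adjusted p = 0.672). MAPK3, which encodes an ERK kinase, was at 37.8 to 47.0 CPM against 29.1 to 36.0 CPM, a change of 0.31 ± 0.11 (SE, adjusted p = 0.0491). That call was lost in 7 of the 8 fits that left out 1 library, with adjusted p up to 0.128.

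Of 14 tested genes of the MAPK cascade, 4 were higher and 3 lower (50.0% called, beside 30.5% of all genes), with a median log2 change of 0.14. HRAS, a GTPase upstream of RAF, was at 23.8, 27.5, 28.5 and 49.2 CPM against 16.2, 11.7, 11.7 and 16.1 CPM, a rise of 1.21 ± 0.20 (SE, adjusted p = 0.000697). KSR1, a scaffold that brings RAF and MEK together, fell by 1.14 ± 0.27 (SE, adjusted p = 0.00582).

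Few genes that ERK switches on were called. Of 21 tested, 1 was higher and 2 were lower (14.3% called, beside 30.5% of all genes), and 4 were higher without high fat library 4. The list had a median log2 change of 0.02, beside -0.01 for all 16012 genes. DUSP6, a phosphatase that shuts ERK off and is induced by it, was at 360, 350, 344 and 535 CPM in the combination libraries and at 218, 249, 212 and 485 CPM in the high fat libraries. The ranges overlapped only through high fat library 4, and the log2 change was 0.45 ± 0.22 (SE, adjusted p = 0.126). EPHA2, a receptor kinase, fell from 45.02, 46.7, 47.0 and 71.5 CPM to 30.9, 20.4, 23.8 and 16.1 CPM (-1.204 ± 0.24, SE, adjusted p = 0.00212), and SPRY4, a feedback inhibitor, fell by 0.65 ± 0.18 (SE, adjusted p = 0.0122). CCND1, cyclin D1, was at 204 to 279 CPM against 224 to 406 CPM (-0.18 ± 0.16, adjusted p = 0.407).

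Receptor tyrosine kinases and their ligands were called lower in 8 of 26 genes and higher in 2, beside 16.7% higher and 13.8% lower of all genes, with a median of -0.27. Scaled by total counts alone, 7 of the list were higher and 1 lower, beside 6585 higher and 388 lower of all 16012 genes. PDGFRB, the PDGF receptor beta, was at 17.97, 10.9, 11.51 and 8.53 CPM against 25.4, 24.6, 29.8 and 28.5 CPM, and fell by 1.15 ± 0.19 (SE, adjusted p = 0.000716). AREG, a ligand of EGFR, was at 17.9, 16.9, 17.1 and 106 CPM against 2.15, 3.98, 1.29 and 10.3 CPM. All combination libraries were above all high fat libraries, and AREG rose by 3.14 ± 0.80 (SE, adjusted p = 0.0106), or by 1.95 without combination library 4.

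Genes of DNA replication rose together. Of 28 tested members of the S phase list, 24 rose, with a median log2 change of 1.24 and a range from 0.30 to 2.33. For 23 of them, the 4 combination libraries were all above the 4 high fat libraries. By comparison, 16.7% of all tested genes rose and 13.2% rose without overlap. Leaving out 1 library gave 23 to 27 members, and removing the libraries above 30% ribosomal RNA gave 23. With the ribosomal share, which cannot be told apart from the groups, as a covariate 1 member was called, E2F1 (2.41 ± 0.40, SE, adjusted p = 0.0443). In that fit CCNE2 was at 2.82 ± 0.66 and CDC6 at 2.09 ± 0.52 (SE), with larger SE than in the main fit.

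FEN1 (the nuclease that trims Okazaki fragments, chr11:61792637-61797244) was at 90.4, 141, 132 and 122 CPM in combination libraries 1 to 4. It was at 53.5, 51.6, 45.6 and 44.9 CPM in high fat libraries 1 to 4. The lowest combination library was above the highest high fat library, and FEN1 rose by 1.31 ± 0.17 (SE, log2, adjusted p = 0.000195).

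CDC6, which loads the MCM helicase at origins (chr17:40287633-40304657), was at 27.0, 68.7, 55.2 and 55.8 CPM against 15.8, 15.3, 14.0 and 16.5 CPM. It rose by 1.75 ± 0.24 (SE, adjusted p = 0.000284). CCNE2, cyclin E2, was at 8.09, 21.7, 17.6 and 15.99 CPM against 4.01, 4.42, 2.87 and 2.31 CPM, a rise of 2.22 ± 0.31 (SE, adjusted p = 0.000287). In each of these genes combination library 1 was the lowest of its group but still above all high fat libraries.

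RRM2, the regulated subunit of the enzyme that makes deoxynucleotides (chr2:10120698-10131419), was at 68.7, 144, 159 and 173 CPM against 36.6, 35.8, 30.2 and 9.64 CPM. It rose 4.86-fold, or by 2.28 ± 0.39 on the log2 scale (SE, adjusted p = 0.00108). E2F2, a transcription factor that switches on replication genes, was at 3.93, 9.52, 6.43 and 9.06 CPM against 1.52, 1.75, 1.99 and 0.542 CPM, a rise of 2.33 ± 0.38 (SE, adjusted p = 0.000709). Its relative E2F1 was at 23.8, 35.4, 29.8 and 41.3 CPM against 10.7, 13.6, 10.8 and 10.5 CPM (1.51 ± 0.22, SE, adjusted p = 0.000302). PCNA, the sliding clamp of the polymerase, rose by 1.25 ± 0.19 (SE, adjusted p = 0.000422), MCM6 of the helicase by 1.22 ± 0.23 (adjusted p = 0.00158) and MCM10 by 2.097 ± 0.36 (adjusted p = 0.000995).

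Promoters of the S phase genes are shown here because the members moved together. E2F sites were searched as TTTGGCGC, TTTCCCGC, TTTGCCGC and TTTCGCGC on both strands, in the 250 bases before the start of each gene (RefSeq, GRCh38.p14). At least 1 match was found in 13 of 23 S phase promoters that had an entry (56.5%), against 2.79% of all 27305 promoters and 4.21% of those of tested genes. The promoters of E2F1 (chr20:33686386-33686635, minus strand), E2F2 (chr1:23531234-23531483, minus strand) and MCM6 (chr2:135876444-135876693, minus strand) are printed 5′ to 3′ with matches in capitals. In MCM6 each run in capitals holds 2 overlapping matches, 1 on each strand, and the first run in E2F1 is a match on the opposite strand.
E2F1: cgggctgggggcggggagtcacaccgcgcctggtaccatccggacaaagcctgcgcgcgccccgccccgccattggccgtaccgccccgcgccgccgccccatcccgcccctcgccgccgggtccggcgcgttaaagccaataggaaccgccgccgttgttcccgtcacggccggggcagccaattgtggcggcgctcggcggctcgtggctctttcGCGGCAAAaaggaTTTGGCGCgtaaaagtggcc
E2F2: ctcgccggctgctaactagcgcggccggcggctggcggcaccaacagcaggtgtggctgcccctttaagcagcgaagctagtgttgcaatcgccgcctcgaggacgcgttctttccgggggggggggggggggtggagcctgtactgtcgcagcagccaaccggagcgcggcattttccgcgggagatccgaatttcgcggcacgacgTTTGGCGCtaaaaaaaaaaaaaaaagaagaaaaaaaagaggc
MCM6: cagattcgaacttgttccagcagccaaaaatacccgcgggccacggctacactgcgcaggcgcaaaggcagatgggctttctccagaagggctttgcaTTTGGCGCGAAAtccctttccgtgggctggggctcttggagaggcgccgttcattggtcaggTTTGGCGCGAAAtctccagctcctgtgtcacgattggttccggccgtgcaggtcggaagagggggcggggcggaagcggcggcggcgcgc

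A match is a description of the letters only. FEN1, CDC6, RRM2 and MCM10 had no match in this window.

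Repair genes were mostly called higher. Of 20 tested genes of homologous recombination and the Fanconi pathway, 16 rose (80.0%, beside 16.7% of all genes), with a median log2 change of 0.89. In 9 of the 20 the groups did not overlap in that direction, beside 13.2% of all genes. FANCA, a core subunit of the Fanconi complex, was at 17.3, 28.6, 33.1 and 25.0 CPM in the combination libraries against 14.6, 12.8, 11.9 and 6.98 CPM. The groups did not overlap, and FANCA rose by 1.17 ± 0.23 (SE, adjusted p = 0.00222), and FANCG of the same complex by 0.79 ± 0.17 (adjusted p = 0.00299). Between 13 and 19 members were called when 1 library was left out, and 11 without the libraries above 30% ribosomal RNA. Fewer of all genes were called in the latter fit. The E2F letters were found in 1 of 18 repair promoters with an entry (5.56%), against 56.5% of the S phase promoters and 4.21% of those of tested genes.

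Genes of mitosis were called less often than those of S phase, a difference that was not tested. Of 24 tested, 5 rose (20.8%, beside 16.7% of all genes), with a median log2 change of 0.80. TOP2A, the topoisomerase that untangles chromosomes, was at 261, 297, 275 and 34.4 CPM in high fat libraries 1 to 4 and at 161, 335, 452 and 184 CPM in combination libraries 1 to 4. MKI67, the gene of the proliferation marker Ki-67, was at 139, 186, 165 and 16.6 CPM against 122, 313, 404 and 141 CPM. High fat library 4 was far below its group in both, and combination library 1 was the lowest of the combination libraries. The log2 changes were 0.38 ± 0.47 for TOP2A (SE, adjusted p = 0.557) and 0.95 ± 0.53 for MKI67 (adjusted p = 0.184).

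The number of mitosis genes called turned on single libraries. All 5 calls were lost without combination library 3, and likewise without combination library 4, while 9 were called without combination library 1 and 7 by DESeq2 with all libraries. Without high fat library 4 and combination library 1 together, an alternative chosen after the data were seen, 20 were higher. CDK1, the mitotic kinase, was at 53.2, 92.5, 116 and 78.6 CPM against 50.2, 56.8, 48.7 and 15.1 CPM and rose by 1.00 ± 0.32 (SE, adjusted p = 0.0296). UBE2C and CDC20, parts of the machinery that ends mitosis, rose by 1.10 ± 0.35 (SE, adjusted p = 0.0275) and 1.26 ± 0.41 (SE, adjusted p = 0.0315). The calls of CDK1, UBE2C and CDC20 were lost in 3, 2 and 4 of the 8 fits that left out 1 library, with adjusted p up to 0.0874, 0.0825 and 0.0803.

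The CHR element TTTGAA, known from promoters of mitotic genes, was found on either strand in 11 of 19 mitosis promoters with an entry (57.9%), against 13.6% of all promoters. It was found in 4.35% of the S phase promoters, and the E2F letters in 5.26% of the mitosis promoters. CDK1 (chr10:60778081-60778330, plus strand) is shown, 5′ to 3′ with the match in capitals, as a member of the list whose call turned on single libraries.
CDK1: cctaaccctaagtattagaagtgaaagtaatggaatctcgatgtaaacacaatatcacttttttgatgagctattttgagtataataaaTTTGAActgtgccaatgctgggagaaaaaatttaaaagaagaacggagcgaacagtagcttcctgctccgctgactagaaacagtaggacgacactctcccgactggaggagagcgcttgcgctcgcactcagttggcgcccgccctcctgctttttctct

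**Figure D3:**
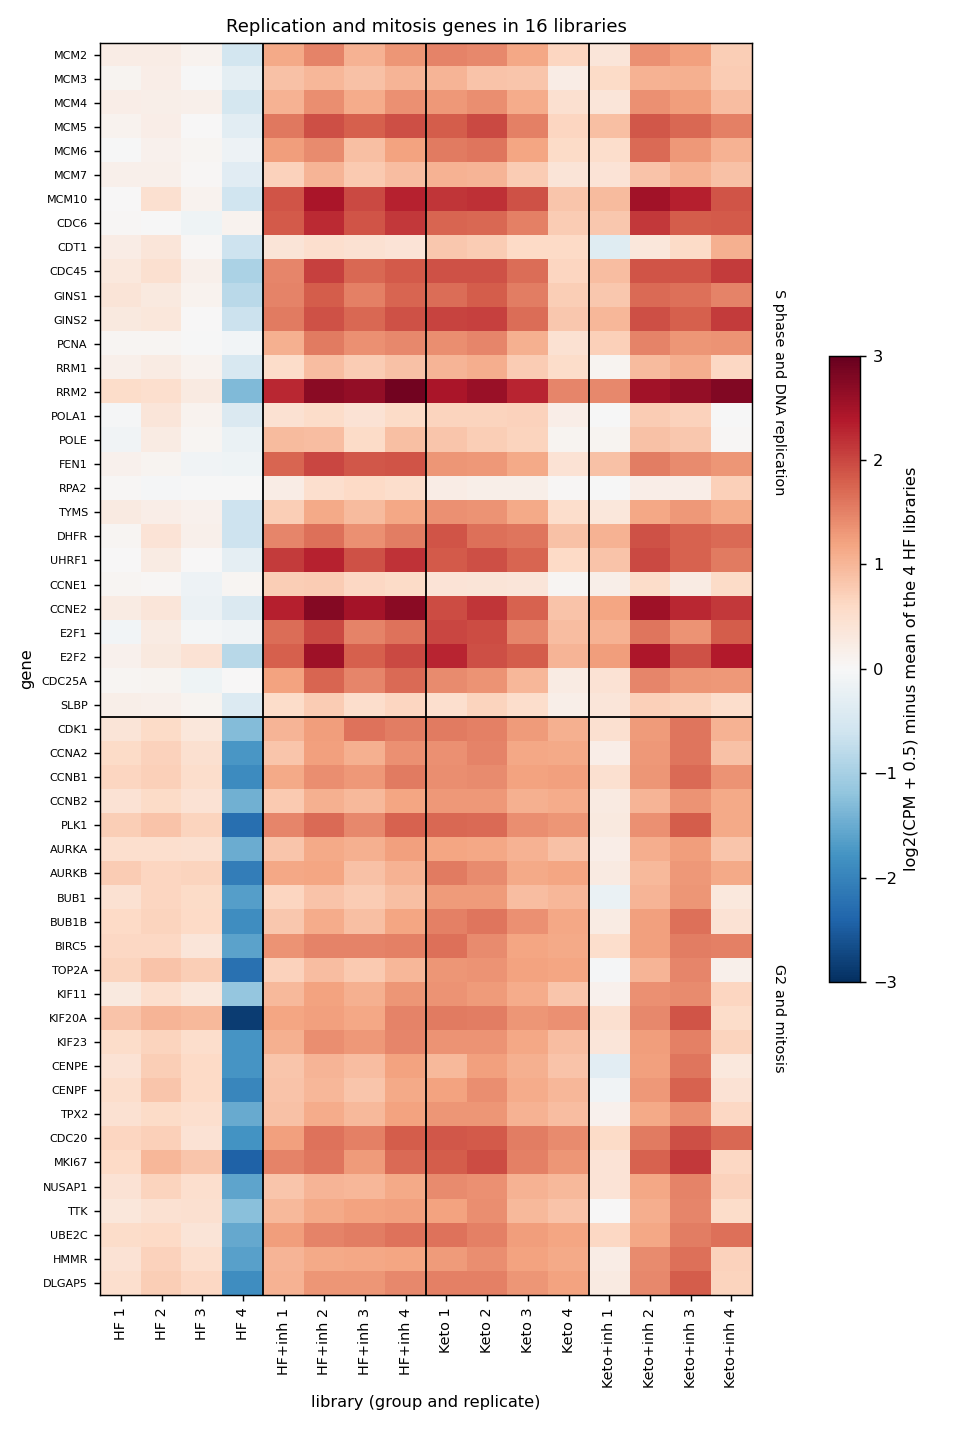
Difference of log2(CPM + 0.5) from the mean of the 4 untreated high fat libraries, for the tested genes of the S phase and mitosis lists (rows) in all 16 libraries (columns, with replicate numbers). Red is higher and blue is lower. S phase rows are mostly red in the other 3 groups, mitosis rows are blue in high fat library 4, and combination library 1 is paler than combination libraries 2 to 4.

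Cyclin D partners and CDK inhibitors were split. Of 13 tested, 5 rose and 1 fell (46.2% called, beside 30.5% of all genes). CCND3, cyclin D3, was at 36.8, 49.4, 51.5 and 67.8 CPM against 26.1, 26.7, 19.9 and 16.5 CPM and rose by 1.203 ± 0.18 (SE, adjusted p = 0.000394). RBL1, a relative of the retinoblastoma protein, rose by 1.11 ± 0.23 (SE, adjusted p = 0.00244) and CDKN2D, an inhibitor of CDK4 and CDK6, by 0.82 ± 0.17 (adjusted p = 0.00269). CDKN1A, the CDK inhibitor p21, was at 101, 99.2, 87.5 and 219 CPM against 85.6, 76.4, 76.9 and 166 CPM (0.32 ± 0.28, adjusted p = 0.395), with replicate 4 the highest in both groups.

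TFRC, the transferrin receptor that brings iron into cells (chr3:196027183-196082189), had one of the widest gaps to the other groups. It was at 67.9, 214, 198 and 131 CPM in combination libraries 1 to 4 and at 16.7, 17.3, 18.4 and 20.4 CPM in high fat libraries 1 to 4. The log2 rise was 3.07 ± 0.42 (SE, adjusted p = 0.000348), or 8.39-fold. Means were 219 ± 22.1 CPM in the high fat group with inhibitors and 104 ± 62.8 CPM in the untreated ketogenic group (SD, n = 4).

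Glycolysis genes were called mostly in the higher direction. Of 22 tested glycolysis genes, 10 rose and 1 fell (50.0% called, beside 30.5% of all genes), with a median log2 change of 0.16. PGAM1, phosphoglycerate mutase, was at 313, 461, 533 and 513 CPM against 194, 203, 178 and 184 CPM, a rise of 1.26 ± 0.16 (SE, adjusted p = 0.000207). PKM, pyruvate kinase, was at 1026, 1607, 1786 and 1963 CPM against 709, 738, 635 and 534 CPM, a rise of 1.29 ± 0.18 (SE, adjusted p = 0.000298). TPI1, triose phosphate isomerase, rose by 1.10 ± 0.17 (SE, adjusted p = 0.00046). LDHA, which turns pyruvate into lactate, rose by 0.86 ± 0.14 (SE, adjusted p = 0.000639), and SLC2A1, the glucose transporter GLUT1, by 0.61 ± 0.10 (SE, adjusted p = 0.000796). None of these 5 genes overlapped between the groups.

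Nuclear genes of the respiratory chain were also called mostly in the higher direction. Of 29 tested, 16 rose and 1 fell (58.6% called, beside 30.5% of all genes), with a median of 0.31. UQCRQ of complex III was at 93.2, 96.8, 88.3 and 162 CPM against 66.3, 57.9, 57.0 and 60.1 CPM, a rise of 0.87 ± 0.17 (SE, adjusted p = 0.00184). NDUFB3 of complex I rose by 0.80 ± 0.16 (SE, adjusted p = 0.00189) and NDUFA4 by 0.81 ± 0.16 (adjusted p = 0.0021). In these genes combination library 4 was the highest. The number of risen members was 9 without that library and 3 without the libraries above 30% ribosomal RNA. In the latter fit, which kept only high fat libraries 1 and 4 of the untreated group, fewer of all genes were called.

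Between pyruvate and the citric acid cycle, 9 of 25 genes rose and 4 fell (52.0% called, beside 30.5% of all genes, 13.8% lower). DLD, the shared E3 subunit of the pyruvate and oxoglutarate dehydrogenases, rose by 0.53 ± 0.10 (SE, adjusted p = 0.00115) and PDHA1 of pyruvate dehydrogenase by 0.36 ± 0.08 (adjusted p = 0.00504). OGDH, oxoglutarate dehydrogenase, fell by 0.43 ± 0.10 (SE, adjusted p = 0.00592), but was at 0.01 when scaled by total counts alone.

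Genes that handle ketone bodies did not move in one direction. Of 9 tested, 2 rose and 2 fell (44.4% called, beside 30.5% of all genes), with a median log2 change of 0.07. OXCT1, the enzyme that activates ketone bodies so that they can be burned, was at 46.8, 72.6, 75.7 and 58.0 CPM against 36.7, 37.7, 38.9 and 39.5 CPM. The lowest combination library was above the highest high fat library, and OXCT1 rose by 0.73 ± 0.14 (SE, adjusted p = 0.00144). SLC16A6, a transporter of ketone bodies, was at 47.8, 27.4, 21.4 and 44.1 CPM against 8.93, 11, 8.73 and 20.2 CPM and rose by 1.52 ± 0.32 (SE, adjusted p = 0.00355).

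AACS, which feeds acetoacetate into lipid synthesis, was at 58.1, 49.0, 40.5 and 40.7 CPM against 72.2, 62.1, 71.4 and 60.9 CPM and fell by 0.50 ± 0.11 (SE, adjusted p = 0.00359). When scaled by total counts alone AACS was at -0.05 (adjusted p = 0.821). BDH1, which interconverts the 2 main ketone bodies, was at 9.04 to 12.9 CPM against 7.35 to 10.7 CPM (0.16 ± 0.14, adjusted p = 0.412). SLC16A1, the transporter MCT1, changed by 0.12 ± 0.11 (adjusted p = 0.412).

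Of 26 tested genes of fatty acid oxidation, 9 rose and 3 fell (46.2% called, beside 30.5% of all genes), with a median of 0.08. CPT2, which hands acyl groups to the mitochondrial matrix, was at 37.8 to 42.4 CPM against 25.9 to 34.6 CPM and rose by 0.45 ± 0.09 (SE, adjusted p = 0.00174). ECHS1 rose by 0.64 ± 0.13 (SE, adjusted p = 0.00216) and ACAA1 by 0.60 ± 0.12 (adjusted p = 0.00217), each a step of the oxidation cycle. PPARA, a receptor that switches on such genes in liver, was at 11.98, 10.9, 10.8 and 4.90 CPM against 15.8, 17.5, 17.9 and 16.6 CPM and fell by 0.81 ± 0.21 (SE, adjusted p = 0.0101). When scaled by total counts alone PPARA was at -0.35 (adjusted p = 0.254). The number of risen members was 2 without the libraries above 30% ribosomal RNA, a fit in which fewer of all genes were called.

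Of 26 genes of fatty acid synthesis and storage, 6 rose and 6 fell (46.2% called, beside 30.5% of all genes). PLIN3, a coat protein of lipid droplets, was at 62.5, 63.5, 71.6 and 73.5 CPM against 34.1, 39.2, 31.2 and 32.0 CPM and rose by 0.99 ± 0.11 (SE, adjusted p = 6.03e-05). ACSL1, which activates fatty acids, fell by 0.69 ± 0.11 (SE, adjusted p = 0.000627). DGAT2, which makes triglyceride, was at 6.91, 4.72, 2.70 and 5.17 CPM against 12.5, 12.2, 11.2 and 8.85 CPM and fell by 1.197 ± 0.21 (SE, adjusted p = 0.000901). FASN, fatty acid synthase, was at 262 to 486 CPM against 269 to 612 CPM (-0.37 ± 0.23, adjusted p = 0.237). Of 24 cholesterol genes, 5 rose and 1 fell, a share called of 25.0%, below the 30.5% of all genes. One of them, FDPS, farnesyl diphosphate synthase, rose by 0.55 ± 0.16 (SE, adjusted p = 0.0162).

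Genes of the unfolded protein response were called only in the higher direction. Of 19 tested, 10 rose (52.6%, beside 16.7% of all genes), with a median log2 change of 0.45. CALR, calreticulin, was at 729, 1099, 1000 and 1158 CPM against 531, 525, 482 and 564 CPM, a rise of 0.92 ± 0.14 (SE, adjusted p = 0.000348). CRELD2 was at 32.4, 41.9, 38.3 and 52.5 CPM against 22.8, 21.7, 16.8 and 22.6 CPM, a rise of 0.98 ± 0.16 (SE, adjusted p = 0.000697). MANF, a protein secreted on such stress, rose by 0.61 ± 0.12 (SE, adjusted p = 0.00179). The groups were apart in CALR, CRELD2 and MANF. HSPA5, the chaperone BiP, rose by 0.51 ± 0.18 (SE, adjusted p = 0.0408) with overlapping groups, a call lost in 5 of the 8 fits that left out 1 library (adjusted p up to 0.14). The number of risen members was 15 without high fat library 4 and combination library 1, and 2 without the libraries above 30% ribosomal RNA. Fewer of all genes were called in the latter fit.

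The stress element ERSE is CCAAT, then 9 bases of any kind, then CCACG. Searched on both strands, it was found in 6 of 18 promoters of that list with an entry (33.3%). Its share was 0.0806% among all promoters and 0.122% among those of tested genes. The element holds a CCAAT box, which by itself was found in 33.0% of all promoters. A match describes the letters only, and MANF, which also rose, had no match in this window. CALR (chr19:12938359-12938608, plus strand) and CRELD2 (chr22:49918384-49918633, plus strand) are printed 5′ to 3′ as 2 members that rose, with the element in capitals on the strand opposite to the motif as written.
CALR: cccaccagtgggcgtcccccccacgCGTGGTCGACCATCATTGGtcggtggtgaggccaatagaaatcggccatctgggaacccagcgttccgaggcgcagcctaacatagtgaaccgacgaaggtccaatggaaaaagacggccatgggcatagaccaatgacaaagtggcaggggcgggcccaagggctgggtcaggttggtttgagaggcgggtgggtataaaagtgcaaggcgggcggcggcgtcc
CRELD2: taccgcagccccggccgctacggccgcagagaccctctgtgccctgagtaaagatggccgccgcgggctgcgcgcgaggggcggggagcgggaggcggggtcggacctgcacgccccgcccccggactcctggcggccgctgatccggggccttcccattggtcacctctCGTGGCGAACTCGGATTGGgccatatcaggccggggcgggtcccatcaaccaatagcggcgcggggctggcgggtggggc

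Of 26 genes of the amino acid response driven by ATF4, 1 was higher and 2 were lower (11.5% called, beside 30.5% of all genes). ALDH1L2, a mitochondrial folate enzyme, was at 17.9, 19.7, 20.8 and 27.8 CPM against 42.8, 39.6, 51.2 and 107 CPM and fell by 1.48 ± 0.25 (SE, adjusted p = 0.00085). ASNS, asparagine synthetase, was at 35.5, 38.0, 46.3 and 197 CPM in combination libraries 1 to 4 and at 51.7, 47.2, 54.6 and 344 CPM in high fat libraries 1 to 4. DDIT3 (the stress factor CHOP, here a member of the unfolded protein list) was at 15.01, 15.4, 17.5 and 182 CPM against 29.6, 24.8, 25.3 and 59.6 CPM. Replicate 4 was the highest in both groups for both genes. The log2 change of DDIT3 was 0.72 ± 0.69 (SE, adjusted p = 0.45), and without combination library 4 it was -1.13 (adjusted p = 0.00998).

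Genes of the extracellular matrix were mostly called in the lower direction. Of 33 tested, 13 fell and 1 rose (42.4% called, beside 30.5% of all genes, 13.8% lower), with a median log2 change of -0.34. Scaled by total counts alone, 3 fell and 3 rose, beside 388 lower and 6585 higher of all 16012 genes in that scaling. COL5A1, the chain that seeds collagen fibrils (chr9:134641774-134844843), was at 15.7, 12.9, 14.1 and 10.6 CPM in combination libraries 1 to 4 and at 41.9, 43.3, 41.4 and 45.2 CPM in high fat libraries 1 to 4. The groups were far apart, and COL5A1 fell by 1.69 ± 0.15 (SE, log2, adjusted p = 1.58e-05). Group means were 17.8 ± 1.79 CPM in the high fat group with inhibitors and 28.3 ± 5.97 CPM in the untreated ketogenic group (SD, n = 4). COL5A1 and FMOD were among the 9 genes called with the ribosomal share as a covariate (adjusted p = 0.0443 and 0.0449).

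LAMB1, a laminin chain of basement membrane, was at 747, 768, 816 and 459 CPM against 1245, 1324, 1279 and 1038 CPM and fell by 0.81 ± 0.16 (SE, adjusted p = 0.00195). COL4A2, a collagen IV chain, fell by 0.66 ± 0.14 (SE, adjusted p = 0.00327). With total counts alone LAMB1 was at -0.34 (adjusted p = 0.179) and COL4A2 at -0.20 (adjusted p = 0.424). COL4A1, the partner of COL4A2, was at 628 to 1175 CPM against 876 to 1226 CPM (-0.22 ± 0.18, adjusted p = 0.363). SPP1, osteopontin, was the member that rose, from 42.3, 41.3, 49.0 and 26.2 CPM to 94.8, 95.7, 92.2 and 87.5 CPM (1.22 ± 0.19, SE, adjusted p = 0.000469). Between 12 and 14 members fell when 1 library was left out, and 7 without the libraries above 30% ribosomal RNA. Fewer of all genes were called in the latter fit. In whole tumors, fewer cells of a type and less RNA per cell cannot be told apart.

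Markers of fibroblasts and mural cells, which the studied tumor line may express itself, had a summed level of 81.1 to 125 CPM in the combination group and 150 to 176 CPM in the untreated high fat group. Of 13 tested markers of this list 3 fell, ACTA2, PDGFRB and FBLN1, and 1 rose (30.8% called, beside 30.5% of all genes), with a median log2 change of -0.23. ACTA2, smooth muscle actin, was at 34.2, 21.7, 14.8 and 20.4 CPM against 61.1, 53.9, 54.5 and 67.1 CPM and fell by 1.37 ± 0.24 (SE, adjusted p = 0.00104). POSTN, periostin, was the marker that rose, at 0.0818, 0.121, 0.439 and 6.23 CPM against 0.0790, 0.108, 0.0957 and 0.14 CPM (3.996 ± 1.31, SE, adjusted p = 0.0317). It rested on combination library 4, without which its change was 0.97 (adjusted p = 0.514). The part of these cells in the matrix result was not tested.

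Proteases that cut the matrix were split, with 3 of 21 genes higher and 2 lower (23.8% called, beside 30.5% of all genes). MMP2, a gelatinase, was at 124, 67.4, 85.4 and 86.3 CPM against 162, 167, 182.9 and 148 CPM and fell by 0.86 ± 0.17 (SE, adjusted p = 0.0019). MMP14, its membrane-bound activator, rose by 0.28 ± 0.08 (SE, adjusted p = 0.0151). SERPINE2, a serpin that blocks plasminogen activators and thrombin, was at 5331, 5450, 4540 and 4978 CPM against 2814, 3337, 2474 and 4247 CPM and rose by 0.66 ± 0.17 (SE, adjusted p = 0.00768). Of 16 integrin subunits 2 fell (12.5%, beside 13.8% of all genes), ITGA7 by 0.63 ± 0.20 (SE, adjusted p = 0.024) and ITGA3 by 0.52 ± 0.17 (SE, adjusted p = 0.0328). Each of these integrin calls was lost in 4 of the 8 fits that left out 1 library, with adjusted p up to 0.0891 and 0.122. Both were lost with total counts alone, where ITGA7 was at -0.22 (adjusted p = 0.489) and ITGA3 at -0.11 (adjusted p = 0.726).

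Pigment genes differed in direction. SLC24A5, a melanosome ion exchanger, was at 5.40, 5.44, 5.93 and 2.74 CPM in combination libraries 1 to 4 and at 0.284, 0.368, 0.0239 and 0 CPM in high fat libraries 1 to 4, where it had 36 counts in all. Its rise was 4.82 ± 0.92 on the log2 scale (SE, adjusted p = 0.00193). TYR, tyrosinase, was at 1.83, 2.46, 2.00 and 3.94 CPM against 0.158, 0.0217, 0.0718 and 0.315 CPM (32 counts) and rose by 4.10 ± 0.89 (SE, adjusted p = 0.00351). Both were higher in 4 of 4 combination libraries. DCT, the next enzyme of pigment synthesis, was at 0.18, 2.70, 2.24 and 1.32 CPM against 5.39, 2.56, 4.47 and 1.38 CPM (-1.10 ± 0.60, adjusted p = 0.17). TYRP1, another enzyme of pigment synthesis, was at 0, 0.0516, 0.0220 and 0 CPM against 0.300, 0.217, 0.287 and 0.123 CPM, which rest on 48 counts. It fell by 3.52 ± 1.16 on the log2 scale (SE, adjusted p = 0.03), a call lost in 6 of the 8 fits that left out 1 library (adjusted p up to 0.0775).

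Of 18 tested genes of melanocyte identity, 5 rose and 2 fell, TYRP1 and TFAP2A (38.9% called, beside 30.5% of all genes). RAB27A, which moves melanosomes, rose by 0.77 ± 0.11 (SE, adjusted p = 0.000348). TFAP2A, a transcription factor of the neural crest, was at 9.69, 9.98, 9.93 and 7.67 CPM against 16.6, 16.9, 18.7 and 14.96 CPM and fell by 0.85 ± 0.13 (SE, adjusted p = 0.000369). BCL2A1, an anti-apoptotic relative of BCL2 and a target of MITF, rose by 0.93 ± 0.18 (SE, adjusted p = 0.00161). Of 26 genes of the dedifferentiated melanoma state 3 rose and 4 fell (26.9% called, beside 30.5%). JUN, a subunit of AP-1, was at 24.4, 23.5, 19.7 and 59.9 CPM against 9.97, 7.97, 8.11 and 13.4 CPM and rose by 1.69 ± 0.32 (SE, adjusted p = 0.00191). ZEB1, a repressor of epithelial genes, was at 57.2, 62.8, 69.6 and 39.5 CPM against 85.1, 98.5, 102 and 93.9 CPM and fell by 0.73 ± 0.15 (SE, adjusted p = 0.00219). With total counts alone ZEB1 was at -0.26 (adjusted p = 0.27) and TFAP2A at -0.39 (adjusted p = 0.0904). AXL, a receptor kinase of that state, was at 253 to 304 CPM against 165 to 503 CPM (0.05 ± 0.26, adjusted p = 0.908).

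Of 24 lysosome genes 9 rose and 2 fell (45.8% called, beside 30.5% of all genes), and 7 rose without the libraries above 30% ribosomal RNA. ATP6V0D1, a subunit of the lysosomal proton pump (chr16:67438014-67481237) was at 50.0, 54.8, 56.3 and 65.2 CPM against 24.4, 28.3, 25.6 and 20.6 CPM and rose by 1.195 ± 0.11 (SE, adjusted p = 2.15e-05). ATP6V1H, another subunit, rose by 0.68 ± 0.08 (SE, adjusted p = 0.000113). The groups were apart in both genes.

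Of 22 immediate early and heat shock genes 8 rose and 1 fell (40.9% called, beside 30.5% of all genes), with HSP90AA1, a cytosolic chaperone, up by 1.06 ± 0.21 (SE, adjusted p = 0.00211) and ZFP36, which destabilizes messenger RNAs, down (-0.93 ± 0.19, SE, adjusted p = 0.00219). Of 21 NRF2 genes 5 rose and 1 fell (28.6% called), among them GCLM of glutathione synthesis, at 13.4, 28.5, 27.9 and 27.8 CPM against 12.3, 12.7, 11.99 and 11.2 CPM (1.02 ± 0.21, SE, adjusted p = 0.00289). Of 26 interferon-stimulated genes 3 rose (11.5%, beside 16.7% of all genes). IFIT3, one of these, was at 23.4, 30.6, 28.9 and 28.6 CPM against 13.5, 13.1, 10.98 and 16.7 CPM and rose by 1.03 ± 0.15 (SE, adjusted p = 0.000284).

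In the BCL2 family 4 of 17 genes rose and 4 fell (47.1% called, beside 30.5% of all genes). Of 18 hypoxia genes 3 rose (16.7%, the same share as of all genes), among them EGLN1, an oxygen sensor, by 0.45 ± 0.09 (SE, adjusted p = 0.00186). Of 22 genes of ribosome biogenesis 3 rose and 3 fell (27.3% called), with NOP58 of the small nucleolar particle up by 0.62 ± 0.13 (SE, adjusted p = 0.00286). Of 17 genes of HLA class I presentation 1 rose and 3 fell (23.5% called), and NLRC5, their activator, fell by 0.54 ± 0.14 (SE, adjusted p = 0.00925). Of 17 inflammatory genes, PTGS2 rose and BIRC3 fell (11.8% called). Of 26 cytosolic ribosomal protein genes 1 was called (3.85%), RPL4, which fell by 0.45 ± 0.15 (SE, adjusted p = 0.0313). That call was lost in 6 of 8 fits that left out 1 library, with adjusted p up to 0.0903, while 9 members fell without high fat library 4 and combination library 1.

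**Figure D4:**
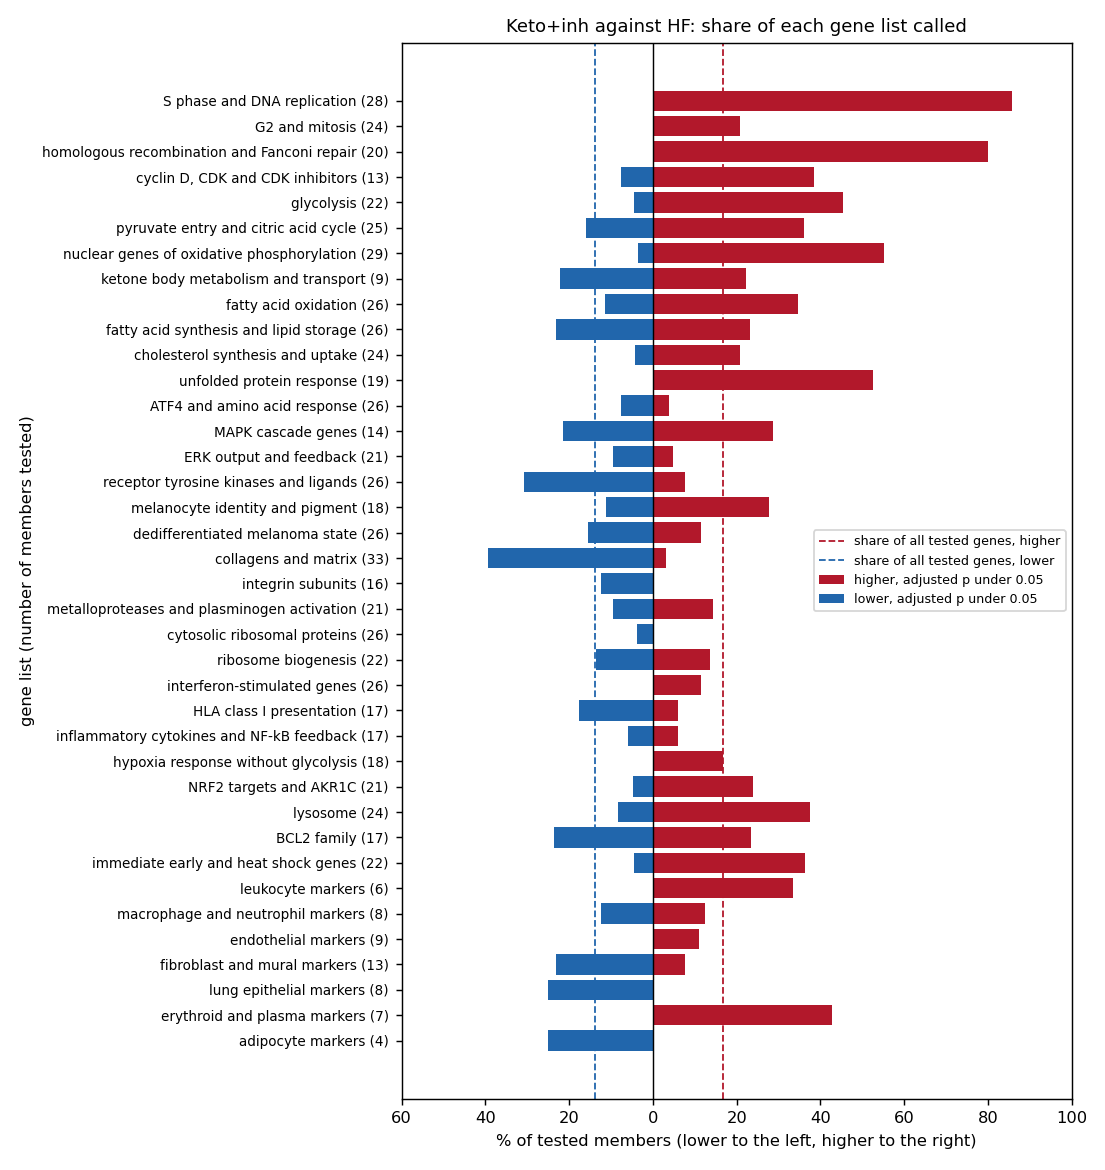
Share of the tested members of each gene list (%, with the number tested in brackets) that were higher (right, red) or lower (left, blue) in the combination group at an adjusted p under 0.05. Dashed lines are the shares of all 16012 tested genes, 16.7% higher and 13.8% lower. The S phase list (24 of 28) and the repair list (16 of 20) have the longest bars to the right, and the matrix list (13 of 33) the longest to the left.

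Of the lists of other cell types, the erythroid and plasma list and the leukocyte list had higher summed levels in each combination library than in each untreated high fat library. The leukocyte markers summed to 5.97 to 15.7 CPM in the combination group and 2.81 to 3.94 CPM in the untreated high fat group. CORO1A, an actin regulator of white cells, was at 2.55, 5.35, 5.71 and 5.52 CPM against 0.822, 1.30, 0.814 and 0.297 CPM and rose by 2.57 ± 0.36 (SE, adjusted p = 0.000287). LCP1 rose by 1.75 ± 0.44 (SE, adjusted p = 0.00799). These were the 2 that rose of 6 tested leukocyte markers (33.3%, beside 16.7% of all genes). Of the 17 listed, 14 were under 1 CPM in all 8 libraries. PTPRC (CD45), the defining marker of white cells, was at 0.0491 to 0.224 CPM in the combination group and 0.0479 to 0.108 CPM in the other. The erythroid and plasma markers summed to 34.7 to 99.1 against 14.3 to 22.7 CPM, of which TTR alone was at 16.6 to 75.2 and 0.927 to 2.01 CPM, while ALB, albumin, stayed below 0.2 CPM and HBB, beta globin, below 0.3 CPM in all 8 libraries. Of the 7 tested genes of that list 3 rose (42.9%, beside 16.7% of all genes), TTR, HBA1 and SERPINA1. HBA1, alpha globin, was at 0.262, 0.361, 0.154 and 0.191 CPM against 0.0316, 0, 0 and 0 CPM, the latter resting on 2 counts, and its call (4.41 ± 1.45, SE, adjusted p = 0.03) was lost in 4 of the 8 fits that left out 1 library. SERPINA1, a protease inhibitor of plasma, rose by 0.56 ± 0.17 (SE, adjusted p = 0.0215), a call lost in 3 of those fits (adjusted p up to 0.0787). LYZ, lysozyme, was at 1.41, 3.79, 3.87 and 4.76 CPM against 0.616, 0.325, 0.383 and 0.875 CPM and rose by 2.63 ± 0.36 (SE, adjusted p = 0.000263). Of the 8 tested macrophage and neutrophil markers it was the 1 that rose, and ITGAX was the 1 that fell (-1.16, adjusted p = 0.00298). The list had 25.0% called, beside 30.5% of all genes, and a median log2 change of -0.41. Macrophage markers summed to 51.9 to 82.5 against 65.9 to 82.2 CPM, endothelial markers to 121 to 147 against 101 to 125 CPM, and lung epithelial markers to 111 to 210 against 163 to 201 CPM. Adipocyte markers summed to 102 to 153 against 101 to 178 CPM. The part of other cells in the results above was not tested.

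The other 2 groups allowed the combination to be set against each single factor. The combination differed from the high fat group with inhibitors in 27 genes (0.169%) and from the untreated ketogenic group in 279 (1.74%). Against the untreated high fat group, the inhibitors alone changed 6771 genes (42.3%) and the ketogenic diet alone 2163 (13.5%). These comparisons share the untreated high fat libraries, so their values are only given side by side. For the S phase list the median log2 change from the untreated high fat group was 1.43 with inhibitors alone, 1.18 with the ketogenic diet alone and 1.24 with both. For the repair list the medians were 0.96, 0.97 and 0.89, and for the matrix list -0.29, -0.07 and -0.34.

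A departure was defined as the combination's log2 change minus the sum of the 2 single changes. It passed the threshold for 1444 genes (9.02%), with 698 (4.36%) above and 746 (4.66%) below the sum. In the S phase list 23 of 28 genes were below the sum, with a median departure of -1.43. FEN1 departed by -1.67 (adjusted p = 0.00421), PCNA by -1.27 (adjusted p = 0.0143) and TFRC by -3.04 (adjusted p = 0.0104). The number of S phase genes below the sum was 16 without high fat library 3 and 1 with the ribosomal share as a covariate, and all 23 calls were lost without the libraries above 30% ribosomal RNA. That last fit kept only high fat libraries 1 and 4 of the untreated high fat group and called no departure for any gene. For all genes, leaving out 1 library gave 500 (without high fat library 3) to 2636 (without combination library 4).

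The highest departures were in LINC00663, TMEM59L and BEST1. LINC00663, a long non-coding RNA (chr19:19757366-19776423), was at 3.83, 0.774, 0.857 and 1.54 CPM in the combination group and had a mean of 6.46 ± 1.14 CPM in the untreated high fat group. Its mean was 0.491 ± 0.188 CPM with inhibitors alone and 2.18 ± 0.988 CPM with the ketogenic diet alone (SD, n = 4), a departure of 3.41 (adjusted p = 0.0103). TMEM59L departed by 2.91 (adjusted p = 0.00814), with 21.7 ± 11.3 CPM in the combination group, 45.5 ± 18.1 CPM in the untreated high fat group and 5.97 ± 0.937 CPM with inhibitors alone (SD, n = 4). BEST1, a chloride channel, departed by 2.89 (adjusted p = 0.0113).

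The lowest departures were in CYP24A1, ESM1 and DKK1. CYP24A1, which degrades vitamin D, was at 0.229, 0.293, 1.51 and 0.139 CPM in the combination group against 5.06 ± 5.20 CPM (SD, n = 4) with the ketogenic diet alone, a departure of -3.83 (adjusted p = 0.0366). ESM1, a secreted proteoglycan, was at 1.15, 1.31, 1.38 and 4.57 CPM in the combination group and had a mean of 12.1 ± 4.36 CPM with inhibitors alone, a departure of -3.44 (adjusted p = 0.0231). DKK1, a secreted inhibitor of WNT signalling, was at 2.57, 10.5, 9.38 and 26.8 CPM in the combination group and had a mean of 26.9 ± 7.79 CPM with inhibitors alone (departure -3.17, adjusted p = 0.0288). Its rise over the untreated high fat group, 1.93 ± 0.57 (SE, adjusted p = 0.0205), was lost in 4 of 8 fits that left out 1 library, with adjusted p up to 0.0924.

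No gene was beyond every other group in the combination at an adjusted p of 0.05 by edgeR's quasi-likelihood test (0 of 16012, 0%). At an unadjusted p of 0.05 there were 145, limma voom called 0, and DESeq2 called 5, all lower. A miss of the threshold does not show that the combination was like a single factor.

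The untreated high fat group was apart from every other group in 973 genes (6.08%), below in 675 (4.22%) and above in 298 (1.86%). It was below all in 23 of 28 S phase genes, 10 of 20 repair genes and 7 of 22 glycolysis genes. The largest gaps below were in CORO1A, TFRC, RRM2, E2F2 and MCM10, whose values are given above. The largest gaps above were in BEST1, COL15A1, DNHD1, MTRNR2L1 and LINC00663. DNHD1, a dynein-like gene, was at 56.2, 43.0, 62.2 and 75.4 CPM in the untreated high fat group, with means of 13.7 ± 6.29 CPM in the combination, 13.8 ± 4.97 CPM with inhibitors alone and 17.1 ± 4.31 CPM with the ketogenic diet alone (SD, n = 4). MTRNR2L1, a nuclear copy of mitochondrial ribosomal RNA whose reads cannot be told from it with certainty, was at 118, 88.9, 160.5 and 124 CPM against 45.4, 15.8, 19.2 and 50.3 CPM in the combination. Leaving out 1 library gave 282 (without high fat library 3) to 1549 (without combination library 1) genes apart, and all calls were lost without the libraries above 30% ribosomal RNA. The latter fit kept only high fat libraries 1 and 4 of the untreated high fat group.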

How the data were processed

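RNA-seq of lung metastases was deposited as 1 table of estimated counts for 26475 gene symbols in 16 libraries. Per the submitters' processing notes, the tools included Bowtie2 2.1.0 and RSEM 1.2.15 with build hg38. Which annotation was used, whether counting was stranded, and whether reads of the mouse host were removed is not given in the sources used here. The authors' expected counts are not whole in 13% of values and were rounded.

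The rounded counts were fitted with edgeR 4.0.16 (R 4.3.3; TMM scaling, filterByExpr, robust quasi-likelihood test, 1 mean for each of 4 groups, 12 residual degrees of freedom). Adjusted p-values are Benjamini-Hochberg values over 16012 genes, with a threshold of 0.05, and SE is the size of the log2 fold change divided by the square root of F. CPM values use TMM-scaled library sizes. A departure is the contrast of the combination against the sum of the single effects. A gene is beyond every other group where 3 contrasts share a sign and the largest of their p-values passes.

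Named genes were, among called genes whose groups did not overlap and whose higher mean was 5 CPM or more, the 8 highest and 8 lowest fold changes, the 3 genes of smallest p in each process list, the genes of the drug targets, the 5 with the largest gap in each direction for a group apart from all others, the 3 highest and lowest departures, and the most abundant gene of each marker list. Further genes are named as known members of their lists or because single libraries stood apart, and were chosen after their values were seen. Some items that this rule names are not reported here. Comparison members and lists were chosen with earlier results of these data known. Alternatives used DESeq2 1.42.0, limma 3.58.1 and other scalings, filters and left-out libraries. Gene coordinates are from GENCODE release 29 (hg38), and promoter sequences from RefSeq (GRCh38.p14).

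On simulated counts for 15845 genes the main comparison recovered 32.4% of 1.5-fold, 72.7% of 2-fold and 100% of 4-fold changes. The test for the combination beyond every other group recovered 11.8%, 57.6% and 97%. Only 68, 66 and 66 genes were changed at these folds, whereas 30.5% of genes were called in the data. The simulation held no difference in ribosomal share, so its rates are not the power in these data.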

Additional observations from a re-analysis of the deposited data

Results flagged for a closer look

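Of 288 groups of 4 libraries looked at (the named genes and the ribosomal share in the combination and the untreated high fat group), 54 (18.8%) held 1 library far from the other 3, where the gap to the nearest library exceeded Dixon's 95% critical share of the range. Chance would flag about 1 in 20 among independent groups of normal values. The groups here share libraries and are in linear CPM, and some genes were named because single libraries stood apart. The 18.8% is therefore not a test against that rate. Combination library 4 gave 28 of the 54 and untreated high fat library 4 gave 17.

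Combination library 4 was the highest of its group for RNAs without a poly-A tail, at 76.9 CPM for RMRP, 166 CPM for RN7SK, 463 CPM for RN7SL1, 5.89 CPM for RNU2-1, 0.521 CPM for RNU2-2P and 68.8 CPM for SNORD3A. It was also the highest for stress and immediate early genes and their relatives, at 197 CPM for ASNS, 219 CPM for CDKN1A, 128 CPM for CHAC1, 182 CPM for DDIT3, 535 CPM for DUSP6, 59.9 CPM for JUN and 198 CPM for TRIB3. Metabolic genes high in that library were at 70.2 CPM for ACAA1, 157 CPM for ECHS1, 129 CPM for FDPS, 186 CPM for NDUFA4 and 162 CPM for UQCRQ. Secreted proteins and other genes high there were at 106 CPM for AREG, 168 CPM for C1QTNF3, 4.57 CPM for ESM1, 17.9 CPM for LDLRAD2, 24.8 CPM for NTS, 6.23 CPM for POSTN and 154 CPM for PTGS2. It was the lowest of its group at 4.90 CPM for PPARA, 2.74 CPM for SLC24A5 and 7.67 CPM for TFAP2A.

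Untreated high fat library 4 was the highest of its group at 344 CPM for ASNS, 47.5 CPM for BEST1, 406 CPM for CCND1, 166 CPM for CDKN1A, 93.2 CPM for COL15A1, 59.6 CPM for DDIT3, 6.46 CPM for DKK1, 485 CPM for DUSP6, 71.5 CPM for EPHA2, 975 CPM for HSPA5, 128 CPM for OGDH, 251 CPM for PSAT1, 11.2 CPM for STAC, 72.3 CPM for TMEM59L and 123 CPM for TRIB3. It was the lowest of its group at 269 CPM for FASN and 34.4 CPM for TOP2A.

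Other libraries stood apart in single measures. ADIPOQ was at 0.0327 CPM in combination library 1. CORO1A was at 2.55 CPM in combination library 1. CYP24A1 was at 1.51 CPM in combination library 3. E2F1 was at 13.6 CPM in untreated high fat library 2. FMOD was at 0.263 CPM in untreated high fat library 3. GCLM was at 13.4 CPM in combination library 1. HBA1 was at 0.0316 CPM in untreated high fat library 1. RAB27A was at 18.02 CPM in combination library 2. The ribosomal RNA share was at 4.10% in combination library 3.

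Of 138 named genes tested, 48 departed from the sum of the single effects (edgeR, Benjamini-Hochberg adjusted p under 0.05). By this test, the effect of the diet differed with and without inhibitors in these genes. Of all 16012 genes, 1444 (9.02%) departed. Some genes were named by this test, or because the untreated high fat group was apart, which rests on the same libraries. A high share among named genes was thus built in. No gene departed without the libraries above 30% ribosomal RNA. That fit kept only high fat libraries 1 and 4 of the untreated high fat group. Among genes of the cell cycle and repair the log2 departures were -1.11 for CCND3, -2.36 for CCNE2, -1.82 for CDC6, -1.14 for CDKN2D, -1.92 for E2F1, -2.08 for E2F2, -1.25 for FANCA, -0.84 for FANCG, -1.67 for FEN1, -2.05 for MCM10, -1.30 for MCM6, -1.27 for PCNA, -1.27 for RBL1 and -2.33 for RRM2. Among genes of metabolism and the lysosome they were -0.90 for ATP6V0D1, -0.71 for ATP6V1H, -0.55 for DLD, -0.86 for LDHA, -1.02 for PGAM1, -1.20 for PKM, -1.06 for PLIN3, -1.54 for SLC16A6 and -0.68 for SLC2A1. The other departures below the sum were -0.998 for BCL2A1, -3.06 for CORO1A, -0.78 for CRELD2, -3.83 for CYP24A1, -3.17 for DKK1, -3.44 for ESM1, -1.22 for HSP90AA1, -2.81 for LYZ, -0.49 for MMP14, -1.09 for SERPINA1, -0.78 for SERPINE2 and -3.04 for TFRC. Departures above the sum were 0.55 for AACS, 0.63 for ACSL1, 1.24 for ACTA2, 1.52 for ALDH1L2, 2.89 for BEST1, 2.28 for COL15A1, 4.05 for DCT, 1.77 for DNHD1, 3.41 for LINC00663, 2.06 for MTRNR2L1, 2.04 for STAC, 2.91 for TMEM59L and 0.83 for ZEB1.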

How the results depend on the processing

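Scaling by RLE factors, removal of ribosomal RNA genes and 3 other filters on low counts gave 4167 to 4877 genes called between the combination and the untreated high fat group, 1074 to 1584 departures and 775 to 1010 genes in which the untreated high fat group was apart. DESeq2 gave 2487 departures, 5 genes beyond every other group and 1595 genes in which the untreated high fat group was apart. Limma voom gave 8102 genes in the main comparison, 5208 departures and 4202 genes apart. Scaling by total counts alone gave 238 departures and 1 gene beyond every other group. In that scaling, whose totals include ribosomal RNA, 6585 genes were higher and 388 lower, with a median log2 change of 0.43 for all genes. That scaling lost the calls of the falls in AACS, ACSL1, BIRC3, BRAF, COL4A2, FBLN1, ITGA3, ITGA7, KSR1 and LAMB1. It also lost those of MMP2, NLRC5, PPARA, RPL4, SPRY4, TFAP2A, TMEM59L, ZEB1 and ZFP36. The main comparison gave 2725 genes when only its 8 libraries were fitted and 329 against a minimum of 1.5-fold. With the ribosomal share as a covariate there were 9 genes in the main comparison, 30 departures and 0 genes apart. Without the libraries above 30% ribosomal RNA there were 1718, 0 departures, 1 beyond every other group and 0 apart. That fit kept only high fat libraries 1 and 4 of the untreated high fat group. The causes were not tested.

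Leaving out 1 library gave 3384 to 5889 genes in the main comparison, 500 to 2636 departures, 0 to 1 gene beyond every other group, 282 to 1549 genes apart and a log2 ribosomal difference of -2.34 to -1.93. Departures numbered 722 without high fat library 1 and 662 without combination library 1, and genes apart numbered 567 without high fat library 1. Without high fat library 4 and combination library 1 together, chosen after seeing the data, the counts were 6157, 1202, 0 and 1719.

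Among named genes past the threshold in the main or the alternative fit, the values whose direction turned were 0.13 for BCL2L13, 0.42 for DUSP4, 0.43 for MITF, 0.012 for OGDH and 0.041 for TAP1 with total counts alone, 1.96 for RNU2-1 and 1.499 for RNU2-2P with the ribosomal covariate, and -1.13 for DDIT3 without combination library 4 (1.43 without high fat library 4 and combination library 1). Besides these values, 22 of 138 named genes changed sign under some alternative with neither fit past the threshold, 7 of them with total counts alone, among them CCND1, COL4A1, MAP2K2 and FASN.

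Same-numbered libraries of the 2 groups correlated in their deviations from the group means at 0.188, 0.0788, 0.0329 and 0.161. Combination libraries 1, 2 and 4 each correlated best with the high fat library of the same replicate number. Combination library 3 correlated best with high fat library 2 (0.158). Whether replicate numbers pair the samples is not stated by the labels and was not tested. With the number as a block, 4867 genes were called in the main comparison, 1433 departed, 0 were beyond every other group and 910 were apart.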

Other observations

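Genes of the amino acid response were high in the fourth library of both groups. TRIB3, a pseudokinase induced by ATF4, was at 33.0, 24.5, 24.7 and 198 CPM in combination libraries 1 to 4 and at 31.9, 31.0, 27.4 and 123 CPM in untreated high fat libraries 1 to 4. PSAT1, an enzyme of serine synthesis, was at 53.0, 79.5, 84.0 and 222 CPM and at 71.7, 62.3, 74.3 and 251 CPM. CHAC1, which degrades glutathione, was at 12.3, 15.9, 16.9 and 128 CPM and at 18.6, 22.9, 17.5 and 38.8 CPM. In the other 2 groups TRIB3 stayed between 23.6 and 31.0 CPM.

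Small RNAs without a poly-A tail were high in combination library 4 and in high fat libraries 2 and 3. RN7SK was at 6.68, 4.99, 4.83 and 166 CPM in combination libraries 1 to 4 and at 29.5, 293, 726 and 51.5 CPM in high fat libraries 1 to 4. RMRP was at 2.31, 1.67, 2.33 and 76.9 CPM and at 8.83, 104, 285 and 18.8 CPM. SNORD3A was at 1.56, 1.17, 1.30 and 68.8 CPM and at 15.1, 134, 419 and 25.0 CPM.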
